A study of Mus musculus with 15 samples.

Results

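Atf4 and 9 related transcription factor genes were followed across ventricles of E11.5 mouse embryos, E11.5 being embryonic day 11.5. The 10 genes, Atf4, Atf1, Atf2, Atf3, Atf5, Atf6, Atf7, Cebpb, Cebpg and Ddit3, were taken by name out of 78317 genes in the count tables, and all 10 passed the filter on low counts, as 20269 genes did in all. The question put to them was whether other ATF and C/EBP factors move when Atf4 RNA is lowered or raised. RNA was counted in 15 libraries of C57BL/6 embryos, and the labels conflict on poly(A) selection and ribosomal RNA depletion. The line called CDS carries Atf4fl(CDS)/fl(CDS), loxP sites around exons 2 and 3 with the polyadenylation signal kept, and gave 4 knockout and 4 control libraries. The line called PAS carries Atf4fl(PAS)/fl(PAS), loxP sites around the polyadenylation signal, and gave 4 knockout and 3 control libraries. Knockouts of both lines carry Xmlc2-Cre, a transgene active in heart muscle cells, so other cells of the ventricle kept Atf4, and the labels call the other embryos controls without giving their Cre or flox status. No treatment was given.

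ATF and C/EBP proteins share a bZIP domain, a basic stretch that touches DNA followed by a leucine zipper through which they pair. ATF4 is the effector of the integrated stress response: phosphorylation of the initiation factor eIF2 slows most translation but favours that of Atf4 mRNA, and the protein, usually paired with a C/EBP factor, switches on genes of amino acid supply. Because the response is set largely at translation, the amount of Atf4 mRNA and that of ATF4 protein need not move together. No protein was measured in these data.

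The 2 alleles touch different parts of the gene. Atf4 (ENSMUSG00000042406.9, chromosome 15 from 80139385 to 80141742, plus strand, GRCm39) has 3 exons in its main annotated transcript, and exons 2 and 3 make up 1223 of 1725 bases, or 70.9% (GENCODE M21). The last 30 bases of that transcript are shown because the second line is named for a polyadenylation signal and they hold the hexamer nearest the transcript's end. The hexamer AATAAA, the core of a polyadenylation signal, is in capitals and ends 19 bases before the annotated 3′ end, at chr15:80257512-80257541 on the plus strand of GRCm38. The transcript holds 2 copies of the hexamer, and the labels give no coordinates of the loxP sites, so which copy the PAS allele removes is not given. The hexamer shown lies in exon 3, while the labels say that the CDS allele keeps the polyadenylation signal. How much of exon 3 the CDS allele removes is likewise not given, so 70.9% need not be the share removed.
Atf4 3′ end: gctgtAATAAAttattttgtagtgaaagta

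Promoter windows of 300 bases, from 250 before to 50 after the annotated start, were available for 9 of the 10 genes (RefSeq, GRCm38.p6), Atf6 being the gene without one. The composite element of C/EBP and ATF4 dimers, TGATGNAAT on either strand, was in none of them and in 0.965% of all 32851 windows. With its last letter left free, TGATGNAAN, a form chosen after the first search, it was in the Atf3 window alone and in 3.95% of all windows. The symmetrical cyclic AMP response element TGACGTCA was in none of the 9 genes' windows and in 1.79% of all windows. The related TGACGTAA was in the Atf3 window alone and in 0.499% of all windows. These are matches of letters and not measured binding sites. Atf3 is shown for its matches, which are in capitals and both lie on the opposite strand (TGATGCAAG and TGACGTAA), and Atf5 and Ddit3 because their levels stood lowest beside their controls in the results on the PAS line. Neither of the latter windows holds any of the 4 motifs. Sequence more than 250 bases before the start was not searched, so elements farther upstream would have been missed. The windows lie at chr1:191183284-191183583 on the minus strand for Atf3, chr7:44816609-44816908 on the minus strand for Atf5 and chr10:127290543-127290842 on the plus strand for Ddit3.
Atf3 promoter: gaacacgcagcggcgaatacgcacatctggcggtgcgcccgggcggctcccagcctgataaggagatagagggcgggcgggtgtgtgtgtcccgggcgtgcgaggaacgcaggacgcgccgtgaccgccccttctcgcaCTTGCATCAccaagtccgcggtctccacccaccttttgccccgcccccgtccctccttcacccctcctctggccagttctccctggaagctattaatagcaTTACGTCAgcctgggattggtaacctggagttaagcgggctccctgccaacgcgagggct
Atf5 promoter: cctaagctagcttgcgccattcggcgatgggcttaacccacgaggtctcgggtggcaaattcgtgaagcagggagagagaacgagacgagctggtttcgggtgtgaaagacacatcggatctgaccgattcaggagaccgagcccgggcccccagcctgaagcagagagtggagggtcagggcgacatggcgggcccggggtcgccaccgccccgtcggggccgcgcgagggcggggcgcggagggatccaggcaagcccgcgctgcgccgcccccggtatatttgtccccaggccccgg
Ddit3 promoter: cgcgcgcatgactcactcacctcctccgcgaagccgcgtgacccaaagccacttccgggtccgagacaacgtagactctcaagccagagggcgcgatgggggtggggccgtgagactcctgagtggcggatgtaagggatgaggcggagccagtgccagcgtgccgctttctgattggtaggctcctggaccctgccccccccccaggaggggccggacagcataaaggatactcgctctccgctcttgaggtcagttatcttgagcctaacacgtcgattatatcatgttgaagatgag

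CDS libraries held 30376847 to 46472141 counts and PAS libraries 22623499 to 29315724, so every CDS library was deeper than every PAS library. The labels conflict on the sample: the titles name heart, the tissue and design labels ventricle, and the extraction protocol cultured cortical neurons. The 12 markers of heart muscle, such as Tnnt2 and Myh7, summed to between 38000 and 44800 CPM (counts scaled to library size) in every library, and 5 markers of neurons to between 29.3 and 47.9 CPM. The 4 markers of atrium summed to between 739 and 1240 CPM, and whether the samples held atrium was not tested. The 6 markers of liver and choroid plexus summed to 38.1 to 237 CPM in CDS knockouts and 33.8 to 66.8 CPM in CDS controls. These ranges overlap, with medians of 103 and 57.4 CPM, and 0 of the 4 markers tested were called. Results on the CDS line are also given without CDS knockouts 3 and 4, which were known to be high in Ttr. Without them 0 of the other 9 genes were called in CDS knockouts, as with them.

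Atf4 RNA moved in opposite directions in the 2 lines. In CDS knockouts it stood at 39.6, 48.1, 45.3 and 45.0 CPM, against 114, 112, 116 and 115 CPM in CDS controls, so every knockout lay under every control. In PAS knockouts it stood at 304, 292, 288 and 259 CPM, against 98.9, 92.2 and 100.1 CPM in PAS controls, so every knockout lay above every control. The fall to 0.389 of control (log2 -1.36 ± 0.05, SE) and the rise to 2.94 times control (log2 1.56 ± 0.06, SE) both passed the quasi-likelihood test of edgeR (p adjusted after Benjamini and Hochberg over all genes, 1.25e-13 and 4.25e-14), in comparisons that called 0.0543% and 0.00987% of all genes. The changes differed by a log2 value of 2.92 ± 0.08 (SE), a 7.56-fold difference between the lines (edgeR, adjusted p = 3.88e-17), and Atf4 was the 1 gene of 20269 called in that comparison (0.00493%). In whole ventricle, fewer cells of a type and less RNA per cell cannot be told apart, and counts of the whole gene do not show which exons were present.

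None of the other 9 genes passed the test in either line. In CDS knockouts their levels lay between 0.917 and 1.06 times control, and the 95% intervals of all 9 ratios together spanned 0.823 to 1.24. In PAS knockouts they lay between 0.807 and 1.06 times control, with intervals spanning 0.721 to 1.16. By edgeR, 0 of the 9 were called in CDS knockouts, 0 at an unadjusted p under 0.05 and 0 by DESeq2 or limma-voom, beside 2.62% of all genes at that unadjusted p. In PAS knockouts 0 of the 9 were called by any of these tools and 2, Atf5 and Ddit3, had an unadjusted p under 0.05, beside 5.24% of all genes. The median log2 change of the 9 was -0.01 in CDS knockouts and -0.04 in PAS knockouts, where that of all genes was 0.00 in both. A rise of any of the 9 genes beyond 1.24-fold in CDS knockouts, or beyond 1.16-fold in PAS knockouts, lies outside its 95% interval for whole ventricle. These are the outermost bounds over the 9 genes, and each gene's own interval is given with its values.

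**Figure D1:**
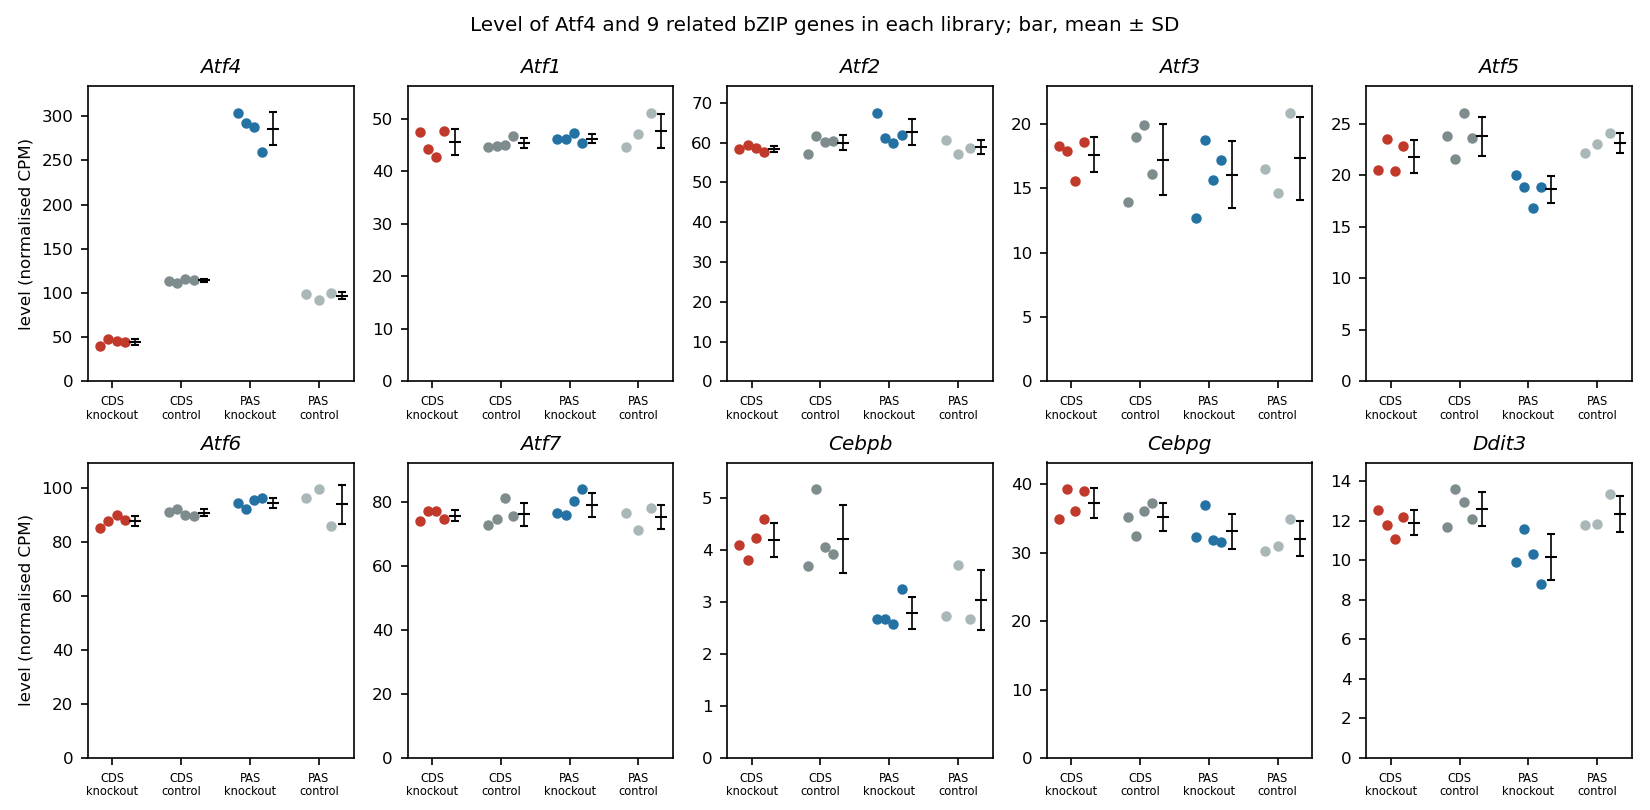
Level of each of the 10 genes in each library, in normalised CPM on axes that start at 0. Points are libraries of the 4 groups and bars are means ± SD. Atf4 lies between 39.6 and 48.1 CPM in CDS knockouts and between 259 and 304 CPM in PAS knockouts, while the groups overlap for most other genes.

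The C/EBP factors that ATF4 pairs with stood close to their controls. Cebpg (ENSMUSG00000056216.10, chromosome 7 from 34745847 to 34755998, minus strand) codes for a short C/EBP protein known as a partner of ATF4. It had 34.9, 39.3, 36.1 and 39.1 CPM in CDS knockouts and 35.2, 32.5, 36.1 and 37.2 CPM in CDS controls, ranges that overlap. Its ratio to control was 1.06 (95% interval 0.969 to 1.15) there. In the other line it had 32.3, 37, 31.8 and 31.5 CPM in PAS knockouts and 30.3, 31.0 and 35.0 CPM in PAS controls, and the ratio was 1.03 (95% interval 0.937 to 1.14). Knockouts thus overlapped controls in both lines, and the ratio between the changes of the lines was 0.978 (95% interval 0.858 to 1.12).

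Cebpb (ENSMUSG00000056501.4, chromosome 2 from 167530835 to 167532338, plus strand), a C/EBP factor of stress and inflammation, was the lowest of the 10 genes and had 61 to 182 counts per library. It stood at 4.10, 3.82, 4.24 and 4.6 CPM in CDS knockouts and 3.69, 5.17, 4.06 and 3.92 CPM in CDS controls, and at 2.68, 2.67, 2.58 and 3.24 CPM in PAS knockouts and 2.73, 3.71 and 2.67 CPM in PAS controls. Knockouts overlapped controls in each line, with ratios of 0.994 (95% interval 0.823 to 1.20) in CDS and 0.924 (95% interval 0.733 to 1.16) in PAS knockouts. PAS controls stood at 0.721 of CDS controls (95% interval 0.578 to 0.899), with overlap of libraries, and this difference did not pass (edgeR, unadjusted p = 0.00554, adjusted p = 0.278). Of its exon bases 20.7% are shared with Tmem189 on the opposite strand, which averaged 1129 counts, and the counting did not use strand. The 6 leukocyte markers are from cells known to express Cebpb. They summed to 33.3 to 52.7 CPM in CDS controls (median 34.4) and 22.4 to 39.8 CPM in PAS controls (median 39.6). Their median log2 change, PAS against CDS controls, was 0.109, with 0 called, and their part in the difference was not tested.

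Ddit3 (ENSMUSG00000025408.16, chromosome 10 from 127126643 to 127132157, plus strand) codes for CHOP, a C/EBP-like factor that ATF4 switches on under lasting stress. In CDS knockouts it stood at 12.5, 11.8, 11.1 and 12.2 CPM and in CDS controls at 11.7, 13.6, 13.0 and 12.1 CPM, which overlap. In PAS knockouts it stood at 9.93, 11.6, 10.3 and 8.81 CPM, each under the 11.8, 11.8 and 13.4 CPM of PAS controls, although Atf4 counts were high in the same libraries. The ratio to control was 0.946 (95% interval 0.841 to 1.06) in CDS and 0.825 (95% interval 0.721 to 0.943) in PAS knockouts. The latter did not pass (edgeR, unadjusted p = 0.00674, adjusted p = 0.934). A second identifier with the name Ddit3, 105 bases long and inside the first, is listed at 0 in every library. The counting had no option to count fragments that fall on several genes, so this 0 is not a measure of its RNA. Of the exon bases of Ddit3 13.3% are shared with other gene models, that identifier included and among them Mars on the opposite strand with 2073 counts on average.

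Atf5 (ENSMUSG00000038539.16, chromosome 7 from 44461680 to 44466082, minus strand) is the closest relative of Atf4, is likewise favoured in translation when eIF2 is phosphorylated, and is a known target of ATF4. It had 20.5, 23.5, 20.4 and 22.8 CPM in CDS knockouts and 23.8, 21.5, 26.1 and 23.7 CPM in CDS controls, with overlap. In PAS knockouts it had 20, 18.9, 16.8 and 18.9 CPM, each under the 22.2, 23.0 and 24.1 CPM of PAS controls. The ratio to control was 0.917 (95% interval 0.832 to 1.01) in CDS and 0.807 (95% interval 0.724 to 0.90) in PAS knockouts. The second did not pass after adjustment (edgeR, unadjusted p = 0.000486, adjusted p = 0.657), and the 2 changes did not differ by test (ratio 0.88, 95% interval 0.761 to 1.02). Averaged over both lines, Atf5 stood at 0.86 of control (95% interval 0.80 to 0.925; edgeR, unadjusted p = 0.000287, adjusted p = 0.253), and it passed when no filter on low counts was used (adjusted p = 0.0198, range over 21 alternatives 0.0198 to 1). For that mean 0 of the 9 were called by edgeR, DESeq2 or limma-voom, beside 0.0789% of all genes (0.0197% higher), and Atf5 and Ddit3 had an unadjusted p under 0.05, beside 3.7% of all genes.

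Atf5 and Ddit3 were thus the 2 of 9 genes whose PAS knockouts and controls did not overlap, where 4.59% of all genes did not. In CDS knockouts 0 of 9 were free of overlap, where 2.8% of all genes were. For both genes the ratio to control was under 1 in both lines. The erythroid markers, 7 genes led by embryonic globins, had a median log2 change of -0.49 in PAS knockouts, with 0 of 7 called, and summed to 1140 to 2250 CPM in knockouts against 1280 to 3440 CPM in controls. Their part in the levels of Atf5 and Ddit3 was not tested.

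**Figure D2:**
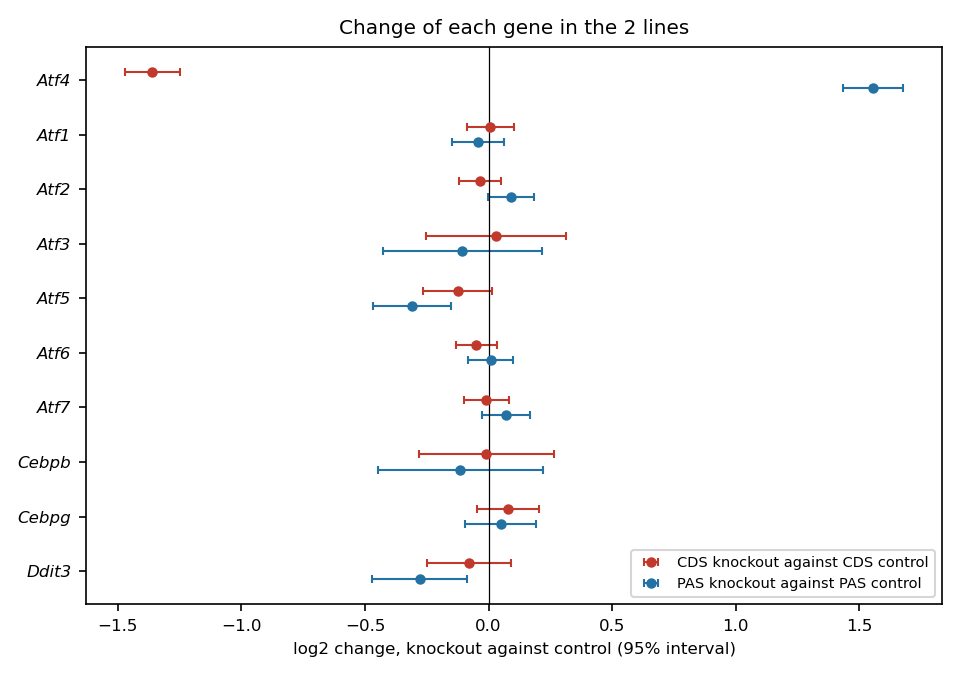
Log2 change of each of the 10 genes, knockout against control, in the CDS and the PAS line, with 95% intervals. Atf4 lies at -1.36 and 1.56, and the other 9 genes lie between -0.31 and 0.09, with intervals of Atf5 and Ddit3 in the PAS line that do not reach 0 before adjustment over all genes.

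Atf3 (ENSMUSG00000026628.14, chromosome 1 from 190902493 to 190950236, minus strand), an early response gene that ATF4 and growth signals switch on and whose protein represses as a pair with itself, varied, with Cebpb, more between libraries of a group than the other members did in both control groups. It had 18.3, 17.9, 15.6 and 18.6 CPM in CDS knockouts and 13.9, 19.0, 19.9 and 16.1 CPM in CDS controls. It had 12.7, 18.8, 15.6 and 17.2 CPM in PAS knockouts and 16.5, 14.6 and 20.9 CPM in PAS controls. The groups overlapped in both lines, with ratios of 1.02 (95% interval 0.839 to 1.24) and 0.929 (95% interval 0.744 to 1.16), and changes inside these intervals were not detectable.

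Atf6 (ENSMUSG00000026663.7, chromosome 1 from 170532243 to 170695340, minus strand) codes for a membrane-bound sensor of the endoplasmic reticulum that is cut free to act in the unfolded protein response. It stood at 85.3, 87.6, 89.7 and 87.9 CPM in CDS knockouts and 91.1, 92.3, 89.8 and 89.4 CPM in CDS controls, where 1 knockout lay above 1 control. It stood at 94.3, 92.0, 95.6 and 96.1 CPM in PAS knockouts, inside the range of PAS controls at 96.3, 99.4 and 85.8 CPM. The ratios were 0.967 (95% interval 0.913 to 1.02) and 1.01 (95% interval 0.945 to 1.07).

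Atf1, Atf2 and Atf7 belong to the branches of the family that bind cyclic AMP response elements, Atf1 beside CREB, which responds to cyclic AMP, and Atf2 and Atf7 as factors activated by stress kinases that also pair with JUN. Levels of these 3 genes lay close to control. Atf1 (ENSMUSG00000023027.14, chromosome 15 from 100125700 to 100159125, plus strand) had 42.7 to 47.6 CPM in CDS knockouts against 44.6 to 46.7 CPM in controls, and 45.3 to 47.3 CPM in PAS knockouts against 44.6 to 51.1 CPM. Its ratios to control were 1.00 (95% interval 0.941 to 1.07) and 0.971 (95% interval 0.902 to 1.05).

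Atf7 (ENSMUSG00000099083.8, chromosome 15 from 102434381 to 102533899, minus strand) had 74.0 to 77.2 CPM in CDS knockouts against 72.9 to 81.4 CPM, and 75.8 to 84.0 CPM in PAS knockouts against 71.2 to 78.3 CPM. The groups overlapped in both lines, with ratios of 0.994 (95% interval 0.935 to 1.06) and 1.05 (95% interval 0.981 to 1.12). Of its exon bases 11.7% are shared with the joined gene model Gm28047, which is listed at 0. The counting had no option to count fragments that fall on several genes, so this 0 is not a measure of RNA on the shared bases.

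Atf2 (ENSMUSG00000027104.19, chromosome 2 from 73646853 to 73722983, minus strand) had 58.5, 59.3, 58.7 and 57.5 CPM in CDS knockouts and 57.3, 61.7, 60.3 and 60.4 CPM in CDS controls. In the PAS line it had 67.5, 61.2, 60.0 and 61.9 CPM in knockouts and 60.7, 57.1 and 58.7 CPM in controls, where 1 knockout lay inside the range of the controls. Of the 3 genes with a ratio under 1 in CDS and over 1 in PAS knockouts, Atf2, Atf6 and Atf7, it had the largest difference between the lines, with ratios of 0.976 (95% interval 0.921 to 1.03) and 1.06 (95% interval 0.998 to 1.14) and a ratio between the lines of 1.09 (95% interval 1.00 to 1.19), which did not pass (edgeR, unadjusted p = 0.0509, adjusted p = 0.995). Atf1 and Atf3 had the opposite pattern. Their ratios were 1.005 and 0.971 for Atf1 and 1.02 and 0.929 for Atf3, each with an interval that included 1. For the difference between the lines 0 of the 9 genes were called by edgeR, DESeq2 or limma-voom and 0 had an unadjusted p under 0.05, beside 4.16% of all genes.

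Levels of different genes were compared per kilobase of exon (FPKM). In CDS controls the order was Atf4 at 48.5 ± 0.842, Atf1 at 14.8 ± 0.312, Atf5 at 11.9 ± 0.925, Atf6 at 9.82 ± 0.141, Atf3 at 8.0 ± 1.27, Ddit3 at 7.35 ± 0.498, Atf2 at 7.32 ± 0.23, Atf7 at 6.94 ± 0.334, Cebpg at 6.27 ± 0.362 and Cebpb at 2.80 ± 0.436 FPKM (SD, n = 4 each). Neighbours from Atf3 to Atf7 overlapped between libraries, and the other neighbours did not. Atf4 was above 95.7% of all genes tested in the controls, and Cebpb close to the middle, above 49.5%.

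Atf4 was first of the 10 in every group. In CDS knockouts it was at 18.9 ± 1.51 FPKM and still above Atf1 at 14.9 ± 0.794 FPKM (SD, n = 4 each), with no overlap of libraries. In PAS knockouts it was at 121 ± 7.99 FPKM, where Atf1 was at 15.1 ± 0.266 FPKM (SD, n = 4 each). In PAS controls it was at 41.2 ± 1.81 FPKM and Atf1 at 15.6 ± 1.07 FPKM (SD, n = 3 each). Atf1 was second and Cebpb last in each group. The full exon length of Atf4 was used in every group, although the CDS allele has loxP sites around exons 2 and 3. The rank and share of Atf4 in CDS knockouts rest on that length.

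Of the summed FPKM of the 10 genes, Atf4 accounted for 18.6% to 21.4% in the 4 CDS knockouts, against 38.5% to 40.1% in their controls. It made up 60.9% to 64.9% in PAS knockouts and 34.9% to 36.7% in PAS controls. The sum of the other 9 stayed within a narrower band, at 71.0 to 76.2 FPKM in CDS knockouts, 72.0 to 78.2 FPKM in CDS controls, 69.6 to 72.7 FPKM in PAS knockouts and 72.3 to 77.9 FPKM in PAS controls. Knockouts and controls overlapped in both lines for this sum. The order rests on the gene lengths in the files, which cover all annotated exons: by the longest coding transcript of GENCODE M21 the mean over 15 libraries went from 6.84 to 13.2 FPKM for Ddit3, from 7.34 to 14.3 FPKM for Atf2 and from 6.98 to 10.7 FPKM for Atf7, while Atf4 stayed first at 80.0 FPKM and Cebpb last at 2.39 FPKM. The lengths in the files include exon bases shared with other genes, 20.7% for Cebpb, 13.3% for Ddit3 and 11.7% for Atf7. The counting had no option to count fragments that fall on several genes, and levels per length were not corrected for this.

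**Figure D3:**
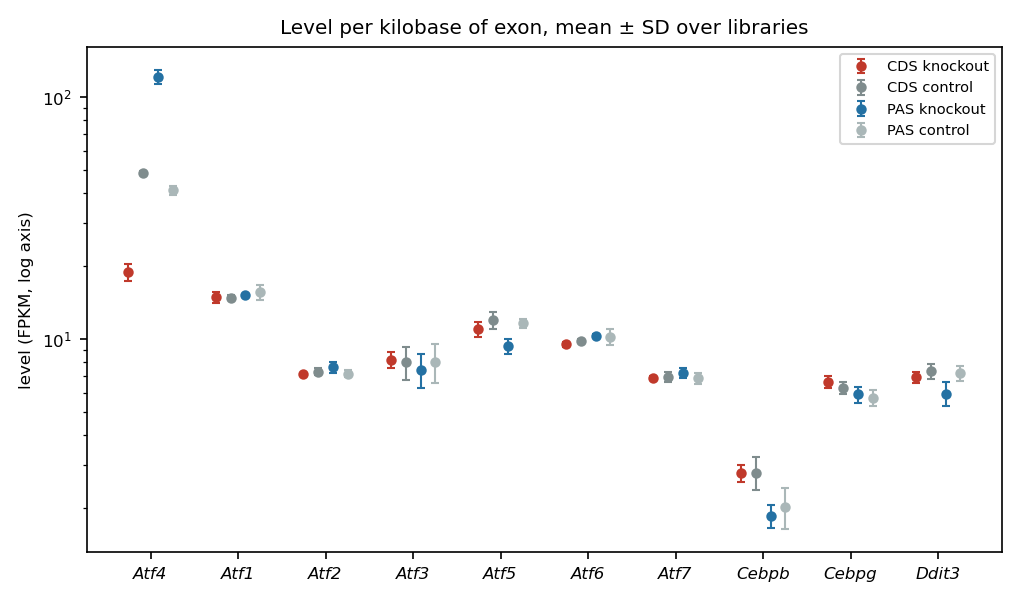
Level of the 10 genes per kilobase of exon, in FPKM on a log axis, as mean ± SD of each group. Atf4 is the highest gene in all 4 groups, from 18.9 FPKM in CDS knockouts to 121 FPKM in PAS knockouts, and the other 9 lie between 1.86 and 15.6 FPKM.

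The controls of the lines were compared as well, with the limit that line and counting run cannot be told apart. The liver and choroid plexus markers summed to 16.5 to 27.7 CPM in PAS controls against 33.8 to 66.8 CPM in CDS controls, with a median log2 change of -2.29 over the 4 tested and 0 called, and their part in the values that follow was not tested. Atf4 stood at 0.849 of CDS controls in PAS controls (95% interval 0.783 to 0.921), with no overlap of libraries, where 9.46% of all genes had none. It did not pass (edgeR, adjusted p = 0.107), but did by DESeq2 (adjusted p = 0.0372) and with no filter on low counts (0.000169), with a range over 21 alternatives of 0.000169 to 0.277. Of all genes 0.143% were called, 0.0345% higher and 0.109% lower. Of the other 9 genes 0 were called by edgeR, DESeq2 or limma-voom, and Cebpb was the 1 with an unadjusted p under 0.05, beside 9.6% of all genes.

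The genes whose log2 CPM followed Atf4 most closely over the 15 libraries, out of 14176 named genes of at least 1 CPM on average, were Ncor1 (Pearson r = 0.893), Capza1 (0.848) and Gm14399 (0.848). Those most opposed were Mcts1 (-0.87), Tardbp (-0.867) and Luc7l (-0.852). Their levels moved far less than that of Atf4: Ncor1, a corepressor gene, had group means of 282, 293, 309 and 300 CPM in CDS knockouts, CDS controls, PAS knockouts and PAS controls, and Tardbp, which codes for an RNA-binding protein, had 394, 377, 331 and 358 CPM. Of the other 9 genes Atf2 came nearest (r = 0.648, place 255 of 14176) and Cebpb was the most opposed (-0.659). These values describe 15 libraries that share their group and line and carry no test.

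A wider list of 42 bZIP genes, with the FOS, JUN, MAF, CREB, NFE2 and PAR branches, showed no call. In it 37 genes had enough counts to be tested. By edgeR, DESeq2 and limma-voom 0 were called in CDS knockouts, PAS knockouts, the difference between the lines or their mean. At an unadjusted p under 0.05 edgeR gave 4, 2, 4 and 1 of the 37 in those comparisons, beside 2.62%, 5.24%, 4.16% and 3.7% of all genes. Median log2 changes were 0.02 in CDS knockouts, with 24 positive and 13 negative, and -0.05 in PAS knockouts, with 11 positive and 26 negative. The most abundant were Jund, a JUN partner of FOS, Nfe2l1, a regulator of proteasome genes, and Creb3l2, a sensor of the endoplasmic reticulum. Their log2 changes were -0.03, -0.02 and 0.09 in CDS knockouts and -0.13, -0.01 and -0.03 in PAS knockouts.

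A list of 29 genes of the stress response, which includes eIF2 kinases, phosphatase subunits and known targets of ATF4, had 27 genes tested. It was chosen with earlier results of these data known. Its counts beside the shares of all genes, here and for the mean of the 2 changes, are therefore a description only. In CDS knockouts 3 were lower and 0 higher, where 0.0444% of all genes were called lower, and 18 of 27 log2 changes were negative with a median of -0.02. These were Cars, the cysteine tRNA ligase gene (log2 -0.46 ± 0.06, SE), Phgdh, the first enzyme of serine synthesis (-0.33 ± 0.05), and Aldh1l2, a folate enzyme of mitochondria (-0.45 ± 0.06), with adjusted p of 0.000506, 0.00282 and 0.00282 by edgeR. Mthfd2, a folate enzyme of mitochondria, had a log2 change of -0.31 there that did not pass by edgeR (adjusted p = 0.0559), but did by DESeq2 (0.00474), by limma-voom (0.0445), with no filter on low counts (0.000135) and without CDS knockout 2 (0.0457), over a range of 0.000135 to 0.808 in 22 alternatives. In PAS knockouts Cars alone was called lower (-0.50 ± 0.07; edgeR, adjusted p = 0.00203), where 0.00493% of all genes were, and 24 of 27 log2 changes were negative with a median of -0.09. Both knockouts thus had lower Cars while their Atf4 counts went in opposite directions. At an unadjusted p under 0.05 edgeR gave 5 of 27 in CDS knockouts, beside 2.62% of all genes. In PAS knockouts it gave 8 of 27, beside 5.24%. Phgdh stood at 46.9 to 49.9 CPM in PAS knockouts against 52.8 to 59.7 CPM in PAS controls. Mthfd2 stood at 27.4 to 31.5 against 31.9 to 35.4 CPM. Neither overlapped, where 4.59% of all genes did not. Aldh1l2 overlapped, at 47.3 to 53.2 against 52.8 to 57.1 CPM, and none of these 3 was called there.

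The mean of the 2 changes called 4 of the 27 lower and 0 higher (0.0592% of all genes lower), which added Mthfd2 (-0.25 ± 0.05, SE; edgeR, adjusted p = 0.0175). That call was lost in 7 of 21 alternatives, among them those without CDS knockout 1 (adjusted p = 0.0505), CDS control 1 (0.0582), PAS knockout 4 (0.0817), PAS control 2 (0.05) or PAS control 3 (0.0706). At an unadjusted p under 0.05 edgeR gave 7 of 27 for the mean, beside 3.7% of all genes. For the difference between the changes 0 of 27 were called by edgeR, DESeq2 or limma-voom, and 3 had an unadjusted p under 0.05, beside 4.16% of all genes. The most abundant genes of the list were the chaperone gene Hspa5, Eif2b5, a subunit of the exchange factor for eIF2, and Eif4ebp1, a translation inhibitor. Their log2 changes were -0.01, -0.01 and -0.11 in CDS knockouts and -0.06, -0.03 and -0.03 in PAS knockouts. Aldh1l2 did not pass in CDS knockouts in a fit of those groups alone (adjusted p = 0.0963, the highest of its 22 alternatives) or with the pair of libraries high in Ttr left out (0.0622), and Cars did not pass in PAS knockouts in such a fit (0.116, the highest of its 21 alternatives).

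**Figure D4:**
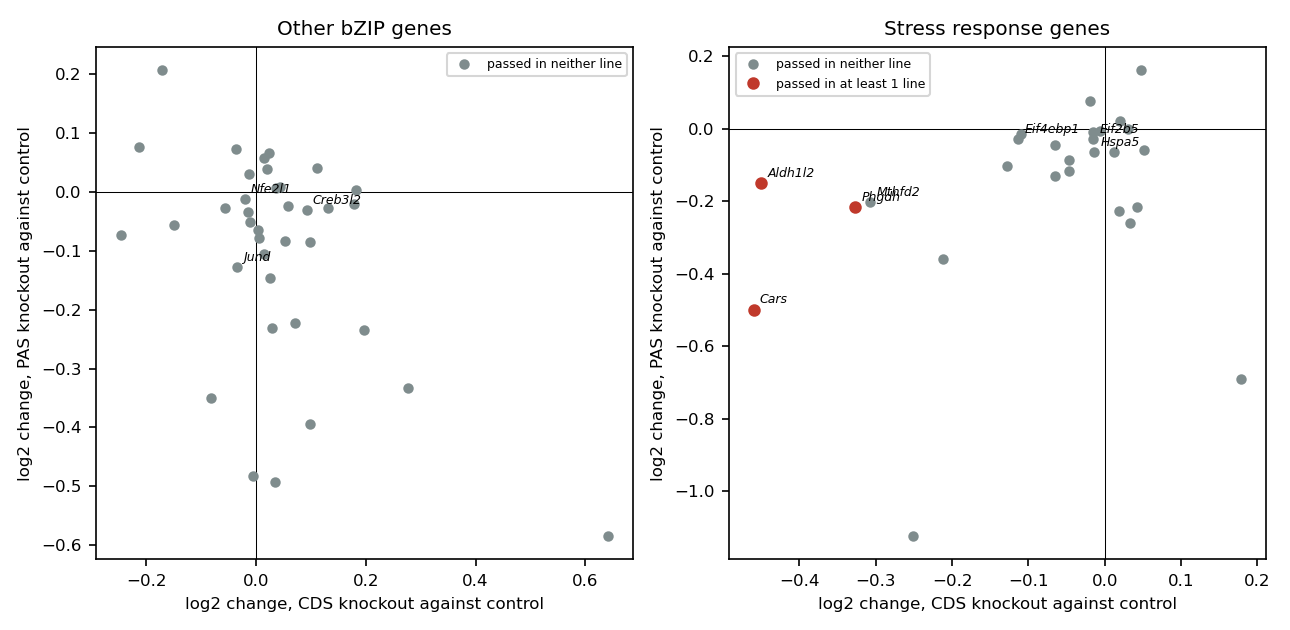
Log2 change in the CDS line (horizontal) against that in the PAS line (vertical) for the 37 other bZIP genes and the 27 stress response genes tested, with genes that passed the test in at least 1 line in red. No bZIP gene is red, and Cars, Phgdh and Aldh1l2 lie below 0 on both axes.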

How the data were processed

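RNA-seq of 15 ventricle libraries was used. The authors deposited raw fragment counts per gene, which per the file headers come from featureCounts 2.1.1 run on read pairs against the exons of mouse GENCODE 37 (GRCm39), with no strand option and no option to count fragments that fall on several genes. The deposited tables also hold the exon length used for FPKM, another deposited column. The submitters' processing notes list HISAT2 2.2.1 and STAR 2.7.11b, and which of them was used is not given in the sources used here. The labels conflict on poly(A) selection and ribosomal RNA depletion. Names were matched by identifier for 51487 of 78317 genes, holding 98.85% of counts, from GENCODE M21. Where 2 identifiers share a name the longer was used.

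Genes were filtered by filterByExpr (minimum count 10), scaled by trimmed mean of M values (factors 0.986 to 1.01) and fitted in 1 model with a mean per group (11 residual degrees of freedom) by the quasi-likelihood method of edgeR 4.0.16 in R 4.3.3. Adjusted p is Benjamini-Hochberg over 20269 genes, called under 0.05. The biological coefficient of variation was 7.44%, and each SE was derived from the F value. DESeq2 1.42.0 and limma 3.58.1 (voom) were alternatives. The code was tested on simulated data. Named list genes were those called in the first 4 comparisons and the 3 most abundant per length in each list. The members and lists were chosen with earlier results of these data known. Replicates are separate samples per the design text. Over 21 pairs within groups, chi-square per degree of freedom of counts lay between 3.45 and 13.9, except for the pairs with CDS knockout 3 at 50.8 to 64.0, and none were merged.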

Additional observations from a re-analysis of the deposited data

Results flagged for a closer look

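The change of Atf4 differed between the lines, with a log2 difference of 2.92 between the PAS and the CDS change, by the test of that difference given with the results. Of 30 groups of 4 libraries, 2 held a library far from the other 3 of its group, where chance gives about 1 in 20. Cebpb stood at 3.24 CPM in PAS knockout 4 against 2.58 to 2.68 CPM in the other PAS knockouts. Cebpg stood at 37 CPM in PAS knockout 2 against 31.5 to 32.3 CPM in the other PAS knockouts.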

How the results depend on the processing

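Atf4 kept its direction and call in both lines and in their difference under every alternative run, with log2 changes of -1.40 to -1.31, 1.52 to 1.60 and 2.86 to 2.97. Of 765 alternative values of the other 9 genes in the first 4 comparisons, 1 changed its call, Atf5 in the mean of both changes with no filter, and 26 had another sign than an uncalled value near 0. Without the filter the genes called went to 31 in CDS knockouts, 7 in PAS knockouts, 3 for the difference, 28 for the mean and 201 between controls, and the members called to 1 for the mean and 1 between controls, where Atf4 passed at log2 -0.255. By DESeq2 they were 20, 7 and 2 in the first 3 comparisons and 101 between controls, with 1 member, Atf4, at -0.233, and limma-voom called 2 for the difference. Fits of the compared groups alone called 1 in PAS knockouts and 10 between controls. Without CDS knockouts 3 and 4 the mean called 10. Leaving out 1 library at a time gave 1 to 2 genes for the difference (2 without CDS knockout 4 or PAS knockout 4) and 15 to 43 between controls, the lowest without PAS control 1. The replicate numbers did not pair libraries (correlations of deviations from -0.751 to 0.20 over 7 pairs). With the replicate number as a block, 1 gene was called in PAS knockouts and 8 for the mean, Phgdh in CDS knockouts had an adjusted p of 0.0838 and Cars in PAS knockouts 0.0936, and for the mean Phgdh had 0.0743 and Mthfd2 0.248. The block was not fitted for the controls. Mthfd2 lost its call for the mean without CDS knockout 1, CDS control 1, PAS knockout 4, PAS control 2 or PAS control 3, or without CDS knockouts 3 and 4 (adjusted p 0.05 to 0.0817), and Aldh1l2 without PAS control 1 (0.0687). The cause of these shifts was not tested. Cebpb, at 61 to 182 counts per library, had wide intervals.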
